A study of Mus musculus with 2 samples.

Results

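Monoamine transmitters are made, packaged and broken down by a small set of proteins, and 9 of the genes that encode them were examined in AgRP neurons of FoxO1 KO and FoxO1 heterozygous KO mice. They are Th, Tph2, Ddc, Dbh and Gch1 for synthesis, Slc18a2 and Slc6a3 for transport, and Maoa and Maob for breakdown. The genes were chosen by role, with earlier results of these arrays already known, so their values are given as a description with no test. Their probe sets were those whose platform annotation names 1 of these symbols and no other gene. All 9 were found among 22296 symbols on the array, with 148 probe sets of 318760 that name a single gene.

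AgRP neurons are hypothalamic cells that release agouti-related peptide and neuropeptide Y and promote feeding. They were sorted by FACS from mice of mixed genetic background, and 1 array was run for FoxO1 KO cells and 1 for FoxO1 heterozygous KO cells (HET), which served as the control and carry a FoxO1 knockout allele as well. Littermates of like age and sex were used, per the labels' protocols. The sources used here do not give the Cre driver, the age of the mice, how many were used or whether they were pooled. With 1 array per genotype no difference has a replicate check, and the precision of all values is limited by that number.

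In catecholamine synthesis, tyrosine hydroxylase (Th) turns tyrosine into L-DOPA, aromatic L-amino acid decarboxylase (Ddc) turns L-DOPA into dopamine, and dopamine beta-hydroxylase (Dbh) turns dopamine into noradrenaline. Serotonin synthesis starts with a tryptophan hydroxylase, Tph2 in brain neurons, and Ddc again completes it. Both hydroxylases need tetrahydrobiopterin, and GTP cyclohydrolase 1 (Gch1) catalyses the first step of its synthesis. The arcuate nucleus, where AgRP neurons lie, also holds dopamine neurons, and some hypothalamic cells carry Ddc without Th.

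Values are log2 probe set values, and every difference is KO minus HET on that scale. Probe sets entered a gene when they averaged at least 5.86 over both arrays, the median of such averages on the whole array, and 98 of the 148 reached this floor. A probe set dim on 1 array could therefore enter through its value on the other. A gene's level on an array and its difference are separate medians over these probe sets, so the difference can depart from the gap between both levels. The SD printed with it is over probe sets of 1 pair of arrays, not over mice. A call of at least 2-fold needed a difference of 1 or more in size, shared in direction by no fewer than 75% of the probe sets. All 9 genes had the minimum of 3 probe sets and were evaluated, among 16639 genes in all. The floor is only a rank over 1235936 probe sets, 910492 of them with no symbol, so passing it does not show expression. On both arrays the levels of Th, Tph2, Slc6a3 and Maob were under 7.37, the 75th percentile of such averages.

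Of the 9 genes, 2 were called at least 2-fold lower on the KO array, Ddc and Gch1, and 0 were called higher. Across all evaluated genes 1.12% were called lower and 1.13% higher, or 186 and 188 genes. That balance depended on the scaling, with 127 lower and 270 higher when differences were centred on the median over genes. Quantile normalisation run again over only the probe sets with 1 symbol gave 142 lower and 247 higher. Removing the trend on level gave 143 lower and 235 higher. The other 7 genes had differences between -0.41 and 0.13. The median over the 9 was -0.19, against -0.11 over all evaluated genes, and 7 of the 9 were below 0, as were 10841 of the 16639. Because the genes were chosen with results in view, the share of 2 in 9 is not set against the background as evidence about the group. In bulk RNA from sorted cells, fewer cells of a type and less RNA per cell cannot be told apart.

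**Figure D1:**
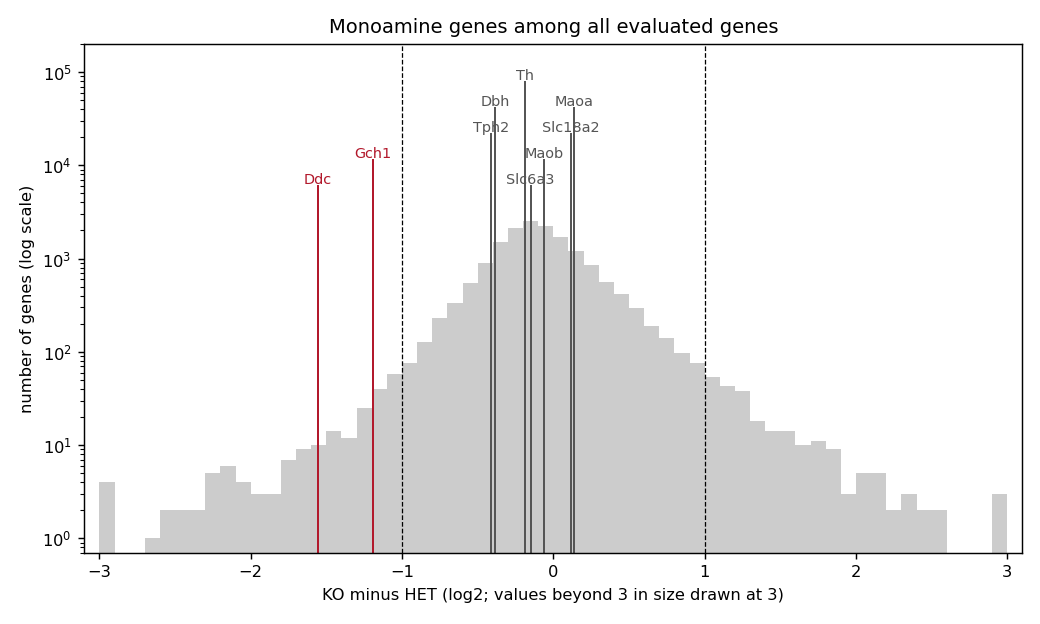
Histogram of the KO minus HET difference (log2, x axis) of all 16639 evaluated genes, with the number of genes on a log y axis and a labelled line for each of the 9 monoamine genes. Dashed lines mark a 2-fold difference. Ddc at -1.55 and Gch1 at -1.19 (red) lie beyond it, and the other 7 genes lie between -0.41 and 0.13.

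Ddc, the decarboxylase shared by the dopamine and serotonin routes, had a level of 7.11 on the KO array and 8.55 on the HET array. Its difference was -1.55 (SD 0.95 over 12 probe sets), or 2.94-fold lower, and 52 of the 16639 genes had a lower one. All 12 probe sets were lower on the KO array, 9 of them by at least 2-fold. Among evaluated genes with at least 10 probe sets, 0.761% had every probe set lower.

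The lower Ddc values were seen in bright and in dim probe sets. The probe set brightest on the HET array stood at 7.68 in KO and 10.78 in HET. The next stood at 9.57 in KO and 10.47 in HET, and another at 8.51 in KO and 10.15 in HET. The widest gap, -3.46, came from a probe set at 4.84 in KO and 8.30 in HET, which passed the floor through its HET value. Some others passed likewise, such as one at 5.25 in KO and 7.39 in HET. The narrowest gap was -0.30. Thus the direction was shared while the size varied widely.

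Another 5 Ddc probe sets lay under the floor, and 4 of these were lower too. The exception stood at 5.70 in KO and 5.50 in HET. Over all 17 probe sets the difference was -1.22, with 16 lower. Leaving out each of the 12 probe sets in turn, a step added after seeing the data, gave -1.64 or -1.47. For an even number of probe sets this can only return either middle value, so it is no check of the call. The 3 evaluated genes outside the group whose pair of levels lay closest to that of Ddc were EG665730, AI847670 and Gorasp1, at Euclidean distances of 0.023, 0.035 and 0.073. Their differences were 0.43, -0.72 and -0.11. With 2 arrays this likeness only says that the medians of their levels were close.

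Gch1, which opens tetrahydrobiopterin synthesis, had a level of 7.55 on the KO array and 8.90 on the HET array. Its difference was -1.19 (SD 1.25 over 10 probe sets), or 2.28-fold lower, and 114 genes had a lower one. Of its probe sets 8 were lower, 6 of them by at least 2-fold, and 2 were higher.

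The Gch1 probe set brightest on the HET array stood at 8.85 in KO and 10.01 in HET. Another stood at 7.39 in KO and 9.30 in HET, and another at 6.49 in KO and 8.99 in HET. One that was bright on both arrays had a small gap of -0.40, at 8.63 in KO and 9.03 in HET. The widest gap was -3.41, from a probe set at 4.32 in KO and 7.73 in HET, which passed the floor through its HET value. The 2 probe sets that went the other way stood at 8.48 in KO and 8.29 in HET, and at 7.70 in KO and 7.20 in HET. Gch1 thus had less agreement among probe sets than Ddc. The eleventh probe set, under the floor, was lower by 0.97 on the log2 scale, and over all 11 the difference was -1.16. Leaving out each of the 10 in turn gave -1.22 or -1.16, again only the middle values and no check of the call.

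**Figure D2:**
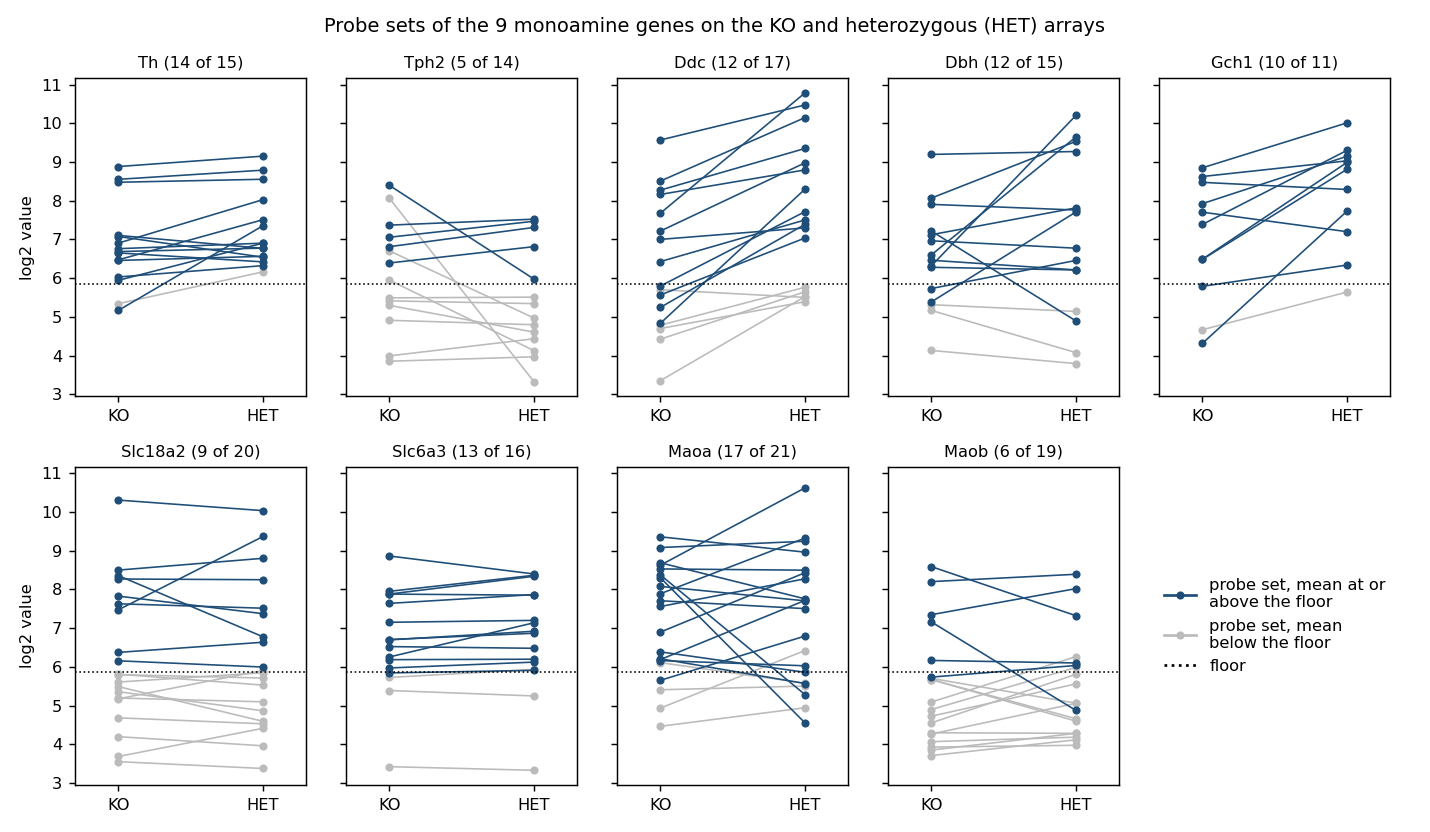
Log2 values (y axis) of every probe set of the 9 genes on the KO array (left in each panel) and the HET array (right), joined by a line. Blue probe sets have a mean at or above the dotted floor of 5.86 and grey ones lie below it, and each title gives their number of all probe sets of the gene. All 12 blue Ddc lines and 8 of 10 blue Gch1 lines are higher at HET, while Dbh and Maoa lines cross.

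FoxO1 belongs to the forkhead family, whose members bind a short motif, so the 250 bases before the annotated starts of both genes with a call are shown. The sequences are from RefSeq (GRCm38.p6), whose promoter table matched 8 of the 9 genes with 9 starts, Ddc having 2. In rat and human, DDC has alternative first exons for neuronal and non-neuronal tissue. Which of the mouse starts was used in these cells is not shown by the arrays. The Ddc starts have windows at chr11:11898145-11898394 (start 1) and chr11:11890409-11890658 (start 2), and the Gch1 window is chr14:47189414-47189663, all on the minus strand. The Th window, chr7:142899996-142900245 on the minus strand, is given as that of a gene of the same route with no call. Capitals mark a match to a motif searched, and each sequence runs 5′ to 3′ and ends just before the start.
Ddc start 1: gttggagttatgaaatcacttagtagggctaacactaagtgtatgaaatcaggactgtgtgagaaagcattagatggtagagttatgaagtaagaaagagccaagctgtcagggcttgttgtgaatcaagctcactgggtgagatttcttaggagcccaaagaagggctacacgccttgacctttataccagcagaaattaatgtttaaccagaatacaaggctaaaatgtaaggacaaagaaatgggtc
Ddc start 2: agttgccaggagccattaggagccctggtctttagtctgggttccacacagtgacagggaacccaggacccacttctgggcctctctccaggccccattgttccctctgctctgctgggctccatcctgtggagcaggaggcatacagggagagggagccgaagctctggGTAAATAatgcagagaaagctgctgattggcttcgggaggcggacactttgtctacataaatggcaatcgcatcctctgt
Gch1: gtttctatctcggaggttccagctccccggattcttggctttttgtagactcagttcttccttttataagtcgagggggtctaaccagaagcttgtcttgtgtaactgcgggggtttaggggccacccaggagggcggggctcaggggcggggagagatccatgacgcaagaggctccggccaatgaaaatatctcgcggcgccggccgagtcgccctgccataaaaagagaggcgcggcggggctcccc
Th: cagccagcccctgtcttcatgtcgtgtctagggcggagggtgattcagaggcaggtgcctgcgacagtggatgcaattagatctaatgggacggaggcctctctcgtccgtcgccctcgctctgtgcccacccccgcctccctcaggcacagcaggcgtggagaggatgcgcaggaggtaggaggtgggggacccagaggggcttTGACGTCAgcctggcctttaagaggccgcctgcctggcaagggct

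The motifs were 4 forkhead words (the word GTAAACA, the word GTAAATA, the word ATAAACA and the word ATAAATA) and the cyclic AMP response element TGACGTCA, searched on both strands from 250 bases before to 50 after each start. The words were chosen with these sequences known. A forkhead word occurred at 1 of the 9 starts, GTAAATA at positions -80 to -74 of Ddc start 2, and in 15% of 32851 promoters of the same length. TGACGTCA occurred at 2 of the 9 starts, at -45 to -38 of Th and at -4 to 4 of Slc18a2, and in 1.79% of all promoters. No motif searched matched in the Gch1 window. A match describes letters in a window and is not evidence of binding.

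Th, whose enzyme sets the rate of catecholamine synthesis, differed by -0.19 (SD 0.71 over 14 probe sets), with levels of 6.73 on the KO array and 6.91 on the HET array. Of its probe sets 11 were lower and 3 higher. The 3 brightest were nearly equal on both arrays, at 8.88 in KO and 9.15 in HET, at 8.55 in KO and 8.79 in HET, and at 8.48 in KO and 8.55 in HET. Larger gaps came from dimmer probe sets, the widest, -2.19, from one at 5.17 in KO and 7.36 in HET. Over all 15 probe sets the difference was -0.24.

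Tph2, the tryptophan hydroxylase of brain serotonin neurons, differed by -0.41 (SD 1.25), yet only 5 of its 14 probe sets reached the floor. Of these, 4 were lower by small amounts (-0.50 to -0.15), and 1 was higher, at 8.40 in KO and 5.98 in HET. Among the 9 probe sets under the floor, 1 stood at 8.06 in KO and 3.33 in HET, a difference of 4.73 that the floor on the mean left out, and 2 more had differences above 1, at 1.73 and 1.82. Over all 14 probe sets the difference was 0.03, with 7 higher and 7 lower. With the floor set on the brighter array, an alternative added after seeing the data, it was 0.79. The sign for Tph2 therefore turned with the choice of probe sets.

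Dbh, the noradrenaline-forming enzyme, had a difference of -0.38 and the widest disagreement of the 9 genes (SD 1.69 over 12 probe sets). Its levels were 6.79 on the KO array and 7.74 on the HET array, with 7 probe sets lower and 5 higher. The probe sets with the largest gaps included 3 bright ones on the HET array, at 6.32 in KO and 10.20 in HET, at 6.60 in KO and 9.65 in HET, and at 8.07 in KO and 9.53 in HET. One further bright probe set was nearly equal, at 9.20 in KO and 9.27 in HET. In the other direction 1 probe set stood at 7.22 in KO and 4.90 in HET. A floor at the 75th percentile of brightness kept 6 probe sets, and Dbh then stood at -1.08 and was called lower, and with no floor it stood at 0.07.

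Slc18a2 encodes the vesicular monoamine transporter VMAT2, which loads monoamines into vesicles, and Slc6a3 the plasma membrane dopamine transporter. Slc18a2 differed by 0.11 (SD 0.91 over 9 of 20 probe sets), with levels of 7.83 in KO and 7.52 in HET and 6 of 9 probe sets higher. Its brightest probe set stood at 10.31 in KO and 10.03 in HET. A single probe set was at least 2-fold lower, at 7.48 in KO and 9.37 in HET, and a single one at least 2-fold higher, at 8.36 in KO and 6.78 in HET.

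Slc6a3 had the closest agreement of the 9 genes, at -0.15 (SD 0.32 over 13 of 16 probe sets), with levels of 6.71 in KO and 7.14 in HET. Whether these Slc6a3 levels stand above background was not tested. None of its 13 probe sets reached a 2-fold difference in either direction. The widest gap was -0.88 (6.26 in KO and 7.14 in HET) and the highest was 0.46 (8.86 in KO and 8.40 in HET). Over all probe sets with a single symbol above the floor, 11% were at least 2-fold lower and 9.24% at least 2-fold higher.

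The monoamine oxidases Maoa and Maob, mitochondrial enzymes that oxidise monoamines, had no call. Maoa differed by 0.13 (SD 1.54 over 17 of 21 probe sets), with levels of 7.89 in KO and 7.72 in HET, 10 probe sets higher and 7 lower. This median hid large gaps in both directions. Its brightest probe set on the HET array stood at 8.63 in KO and 10.62 in HET, and another at 7.89 in KO and 9.33 in HET. Against these, 1 stood at 8.30 in KO and 4.55 in HET and 1 at 8.37 in KO and 5.29 in HET. In all, 5 Maoa probe sets were at least 2-fold lower and 2 at least 2-fold higher.

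Maob is known as an astrocyte-enriched enzyme that is also found in serotonin neurons. It differed by -0.06 (SD 1.13) over 6 of 19 probe sets, 3 higher and 3 lower, with levels of 7.26 in KO and 6.71 in HET. The 13 probe sets under the floor did not enter this difference. Over all 19 it was -0.19, with 7 higher and 12 lower. Astrocyte markers, given here because of that source, had a median of -0.14 over 11 evaluated genes, with 3 above 0 and 8 below and none called. They ran from -0.73 for the glutamate transporter gene Slc1a3 to 0.66 for the filament gene Gfap. Their log2 levels, summed over genes, came to 81.3 in KO and 81.0 in HET. Such a sum is of log2 values, so the ratio of 2 sums is not a fold difference. Their part in the Maob value was not tested.

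**Figure D3:**
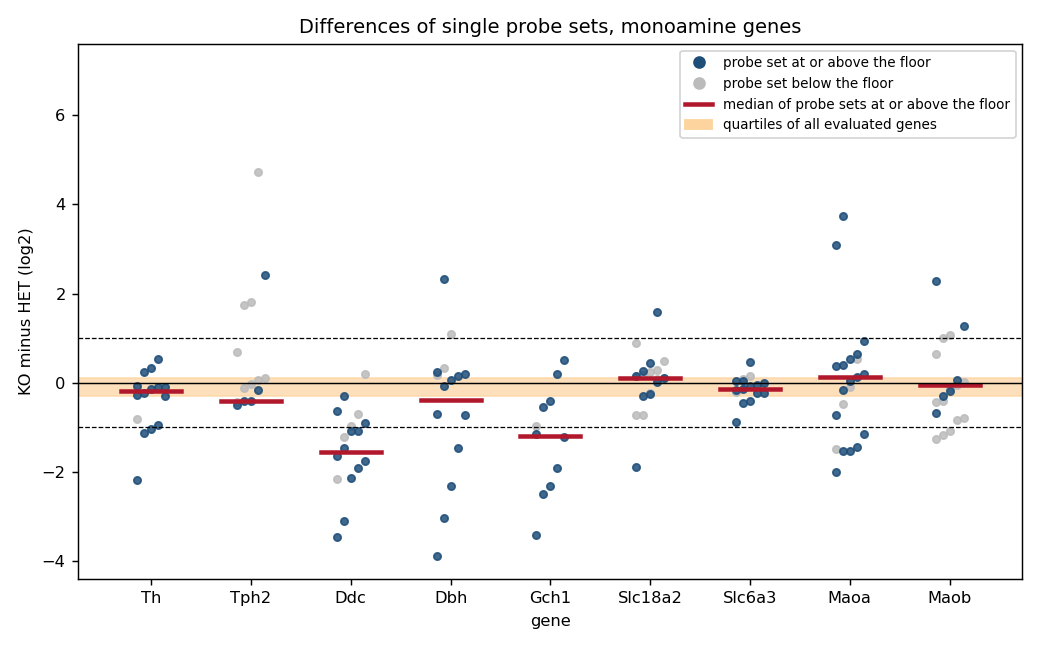
KO minus HET difference (log2, y axis) of each probe set of the 9 genes (x axis), blue at or above the floor and grey below it, with the median of the blue ones as a red bar. The shaded band is the range between the quartiles of all evaluated genes (-0.29 to 0.09) and dashed lines mark a 2-fold difference. Ddc points lie below 0 almost throughout, Slc6a3 points lie close together, and Dbh and Maoa points spread widely.

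Disagreement within a gene was also counted over all genes. An SD over 1.5, a bound set after seeing these values, was found in 2 of the 6 monoamine genes with at least 10 probe sets, and in 4.26% of all such genes. The median SD over all evaluated genes was 0.68. Of the 98 probe sets, 28 were at least 2-fold lower, 15 of them in Ddc and Gch1, and 7 were at least 2-fold higher. Over all probe sets with a single symbol above the floor, the shares lower and higher were 11% and 9.24%. The sources used here do not place probe sets on exons, so no exon is named for these gaps.

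Other genes of the monoamine pathway were taken from lists of 34 genes, of which 25 were evaluated. Of these, 1 was called lower and 1 higher, 18 were below 0 and 7 above, and the median was -0.05. Over all 16639 evaluated genes 1.12% were called lower and 1.13% higher, 10841 were below 0 and the median was -0.11. Both pathway calls were in the list of enzyme cofactor supply, where 4 genes had a median of -0.02. Pdxk, pyridoxal kinase, which makes the vitamin B6 cofactor that Ddc uses, was at -1.11 (SD 0.98, 10 of 13 probe sets lower). Its levels were close, at 8.21 in KO and 8.33 in HET, because medians of levels and of differences were taken apart. A floor at the 75th percentile put Pdxk at -1.02 and a mean in place of the median put it at -0.85, both without a call.

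Cyb561, a cytochrome that passes electrons into secretory vesicles for Dbh, was called higher at 1.05 (SD 1.49, 6 of 8 probe sets higher), with levels of 8.49 in KO and 7.30 in HET. It stood at 0.67 with no floor, without a call.

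Later enzymes of the tetrahydrobiopterin route did not share the size of the Gch1 difference. The 6 evaluated genes of its synthesis and recycling had a median of -0.02, with 2 above 0, 4 below and none called. They ran from -0.36 for Pts, which acts directly after Gch1, to 0.34 for Qdpr, the dihydropteridine reductase that recycles the cofactor. The levels of both went the other way, at 7.63 in KO and 7.16 in HET for Pts and at 8.17 in KO and 8.59 in HET for Qdpr. With no floor Pts stood at -0.01. The 5 other monoamine transporters were all below 0 and none was called. Their median was -0.15, against -0.11 over all evaluated genes, from -0.34 for the noradrenaline transporter Slc6a2 to -0.03 for Slc29a4. Other synthesis enzymes had a median of -0.10 over 4 genes, from -0.19 for Tph1, the peripheral tryptophan hydroxylase, to 0.24 for Aanat of melatonin synthesis. Other breakdown enzymes had a median of -0.02 over 6 genes, from -0.28 for the aldehyde dehydrogenase Aldh1a1 to 0.48 for the sulfotransferase Sult1a1.

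Transcription factors of dopamine, noradrenaline and serotonin neurons were set beside the enzymes. Of 21 genes 16 were evaluated, and 15 of these were below 0, with a median of -0.14 and none called. Over all 16639 evaluated genes 10841 were below 0 and the median was -0.11. Dlx1, a homeobox gene of forebrain interneurons, was lowest at -0.67 (SD 1.17, 4 of 5 probe sets lower), and Gata2 highest at 0.25 (SD 0.92). The log2 levels of the 16, summed over genes, came to 121.2 in KO and 123.4 in HET. The evaluated markers of mast cells, which also store monoamines, had a median of 0.14 over 5 genes, from -0.07 for Kit to 0.30 for Ms4a2.

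**Figure D4:**
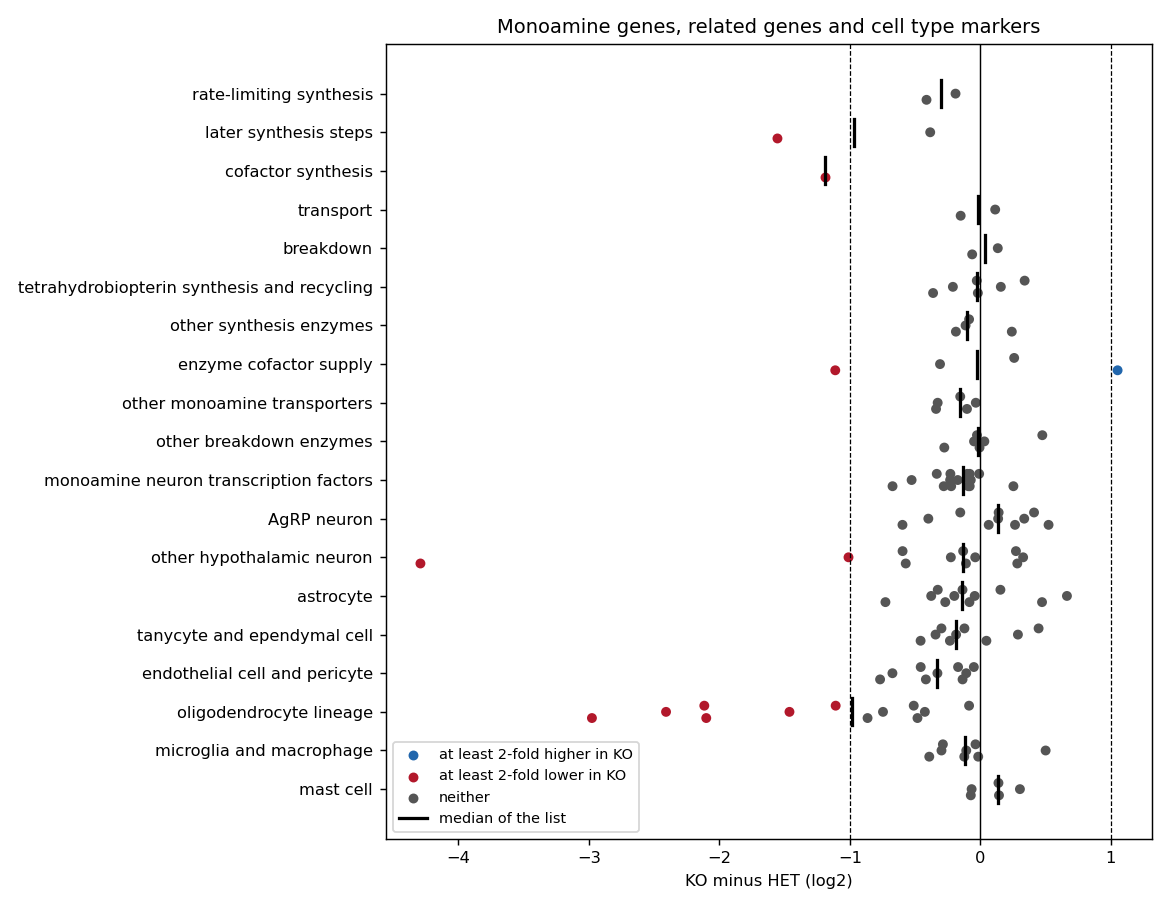
KO minus HET difference (log2, x axis) of every evaluated gene of the 9 monoamine genes by role (top 5 rows), of related pathway genes and of cell type markers, 1 point per gene and 1 row per list. Black bars are list medians and dashed lines mark a 2-fold difference. Ddc, Gch1, Pdxk and Cyb561 are the points past it in the monoamine and pathway rows, and 6 oligodendrocyte markers and 2 genes of other hypothalamic neurons are past it below.

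Other RNA differed between the arrays beside these genes. Agrp and Npy, which define the sorted cells, stood at 12.44 and 12.19 in KO and at 11.97 and 12.31 in HET, with differences of 0.27 and 0.14. The 10 AgRP neuron markers had a median of 0.14 and none was called, from -0.60 for Ghsr to 0.52 for Mc3r. For the lists that follow, 1.12% of all 16639 evaluated genes were called lower and 10841 were below 0. All 12 evaluated oligodendrocyte lineage markers were below 0 with a median of -0.99, and 6 were called lower, led by Ugt8a at -2.98 and Pdgfra at -2.41. Their log2 levels, summed over genes, came to 87.8 in KO and 103.7 in HET, and the ratio of these sums is not a fold difference. Of 11 evaluated genes of other hypothalamic neurons 2 were called lower. The list had a median of -0.13 and a sum of log2 levels of 84.8 in KO and 92.2 in HET. Slc17a6 was at -4.29 (SD 2.32, 9 of 11 probe sets lower), against -1.15 over all its 20 probe sets, and Oxt was at -1.01 (SD 2.57, 5 of 5 lower). All 9 evaluated vessel markers were below 0, with a median of -0.33, against -0.11 over all evaluated genes. They ran from -0.77 for Cdh5 to -0.05 for Pecam1, with a sum of log2 levels of 60.9 in KO and 66.2 in HET. Tanycyte and ependymal markers had a median of -0.19 (Vim -0.46, Gpr50 0.45) and microglial markers one of -0.12 (Mrc1 -0.39, Aif1 0.50). The part of other cell types in the Ddc and Gch1 differences was not tested. Foxo1 itself differed by -0.48 (SD 0.53, 8 of 8 probe sets lower), with no call, and the sources used here do not say which of its probe sets fall inside the deletion.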

How the data were processed

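The authors deposited 1 log2 value per probe set for each of 2 exon-level arrays, made with RMA and Partek per the submitters' processing notes, with no versions. That the scale is log2 was taken from the values (medians of 5.85 on both arrays). Quantile normalisation, a usual step of RMA, hides any difference in total RNA. Genome build and annotation release were likewise not given in the sources used here.

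Of 1235936 probe sets, those with 1 symbol in the platform annotation were summarised by the median, with a floor at the 50th percentile of the mean over both arrays and at least 3 probe sets per gene. No test is possible with 1 array per genotype. The 9 genes, the related lists and the marker lists were chosen with earlier results of these data known. From each list the text names up to 2 called genes per direction, or else the highest and lowest gene. Alternatives varied the floor, the summary, the number of probe sets and the scaling. Gene summaries were tested on shuffled differences, with the same known change added to every probe set of a gene. That could not test false calls or genes whose probe sets disagree. Python 3.11.15, numpy 2.4.6, pandas 2.3.3, statsmodels 0.14.6 and matplotlib 3.10.9 were used.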

Additional observations from a re-analysis of the deposited data

How the results depend on the processing

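Ddc and Gch1 were called lower under all 9 alternatives that give a gene value, at -1.62 to -1.22 and at -1.28 to -1.08. The limits of at least 1 and at least 5 probe sets could not change either gene, since Ddc had 12 and Gch1 10. A floor on the brighter array kept those same numbers and gave the same values. The median over those of the 9 genes that were evaluated ran from -0.24 to -0.08, and 0 were called higher under any of 11 alternatives. The -0.24 came from the floor at the 75th percentile, where Tph2 had too few probe sets to be evaluated. A floor at the 75th percentile gave 3 genes called lower, where Dbh joined, and each other alternative gave 2. A 1.5-fold rule and a call without the agreement rule can only keep or add calls. Signs turned for uncalled genes only, for Tph2 and Maob under 3 and 4 alternatives and for Dbh and Maoa under 1 each. Among the pathway genes, 0 were called higher with no floor, and 0 lower when that higher floor was used or with the mean over probe sets. The mast cell median was -0.0856 with no floor and -0.0665 with at least 5 probe sets. With a 1.5-fold rule 1 transcription factor was lower, and 545 genes were higher and 815 lower in all (3.28% and 4.9%). With at least 1 probe set 338 genes were higher and 329 lower. Of 352 recomputed values 10 moved beyond the spread over probe sets or genes, or by over 1.5 times for a count. The 352 include values that a setting could not change. Centring raises each difference by 0.11. No paired analysis was possible because each genotype has 1 array.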
